A study of Arabidopsis thaliana with 6 samples.

Results

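A total of 118 of 22746 probe sets read lower at each of 2 steps in rosettes of the Arabidopsis thaliana pgm mutant: lower in light than in darkness at low CO2 (the light step), and lower again at normal than at low CO2 in light (the CO2 step). The members were chosen on these values themselves. On the scale log2(intensity + 7.3), both steps had to be -0.7 or less between group means, which is a change of 1.62-fold, both arrays of darkness had to lie above both of low CO2 in light, and these above both of normal CO2 in light, and the mean intensity in darkness had to reach 50. Of all probe sets, 761 met the limit in the light step and 2090 in the CO2 step, and 148 met both. The order of the arrays was kept by 127 of these, and 120 also reached the intensity minimum. WES1 and AT3G07350 met the whole rule and were left out by name. MCCA, ETFQO, AT2G20670 and the ATG8 genes, also set aside by name, did not meet it. A single gene name was given for 54 of the 118 members, each to a different gene, and the other 64 had no name here. No member had several names.

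The 3 groups, each with 2 arrays called A and B after the labels, were normal CO2 in light, low CO2 in light, and low CO2 in prolonged darkness, all for 4 hours. Every plant carried the pgm mutation in the Col-0 background and was 5 to 6 weeks old, and no array of wild-type plants was used here. The mutant lacks the plastidic phosphoglucomutase that leads photosynthetic carbon into starch, so that it has almost no store to draw on when carbon fixation stops. Whole rosettes were taken in 4 harvests of 3, per the labels, which also speak of 15 rosettes ground, so each array is a pool of plants. Biotin-labelled RNA was hybridised to single-colour Affymetrix arrays, and values of a group are given for A and then B. Below, normal CO2 and low CO2 without further words are the groups in light, and the dark is low CO2 in prolonged darkness. In such bulk tissue, fewer cells of a type and less RNA per cell cannot be told apart.

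Plant cells sense their carbon supply. When sugar runs short, the protein kinase SnRK1 is active and favours transcripts for breaking down protein, amino acids and lipids, while growth slows. Light acts on transcripts through photoreceptors and the clock as well as through sugar made in photosynthesis, and lowering CO2 in light takes away much of the sugar while the light signal stays.

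The arrays had median intensities of 39.55 and 36.1 under normal CO2, 36.1 and 35 under low CO2 and 35.1 and 34.6 in the dark, and a trimmed mean near 100.01 on all of them. The number of arrays limits the precision of each value. Of the rosette leaf markers, 5 of 11 had a named probe set (RCA, LHCB4.2, PSAE-1, PSAN and SBPASE), and their summed intensity ran from 13787.1 to 15636.5 over the 6 arrays. Of the root markers 3 of 6 were measured: the beta-glucosidase PYK10 read 295.7 to 542.6, EXPA7 at most 17.8 and PRX57 at most 11.4. Flower and seed markers had no named probe set. The 3 prime to 5 prime ratios of control transcripts, a sign of RNA quality, had no common order of the groups. For 1 pair of ubiquitin probe sets the ratio was 1.69 and 1.95 under normal CO2, 1.44 and 1.38 under low CO2 and 1.48 and 1.39 in the dark, so it was highest under normal CO2. For actin it was 2.16 and 2.60 under normal CO2, 2.63 and 2.84 under low CO2 and 1.97 and 2.34 in the dark, and for GAPDH it lay between 0.949 and 1.13 on all arrays. The other ubiquitin pair gave 2.08 and 3.62 under normal CO2, 1.60 and 1.85 under low CO2 and 2.07 and 1.99 in the dark. Their part in the members' values was not tested.

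The median member intensity was 60.25 and 56.8 under normal CO2, 160.4 and 181.9 under low CO2 and 329.75 and 351.85 in the dark. The median light step was -0.90 on the log2 scale (range -2.39 to -0.70), against 0.02 over all probe sets, and the median CO2 step was -1.02 (range -5.63 to -0.70), against -0.01 over all. Both ranges end at the limit that chose the members. The mean intensity at low CO2 in light was at the median 52.2% of that in darkness, and that at normal CO2 in light 22.2%. The CO2 step was the larger in 78 members and the light step in 40, and the light step made up 19.1% to 71.4% of the total log2 difference (median 46.6%). A CO2 step at least 2 times the light step was seen in 22 members, and the reverse in 3. In 74 members the steps differed by less than the SE of their difference, while the CO2 step was the larger by more than that in 38 and the light step in 6. A total difference of -4 or less was seen in 3 members, -3 or less in 25 and -2 or less in 60. All arrays are scaled to each other, and the arrays of low CO2 in light enter both steps with opposite sign, so a low reading there makes the first step larger and the second smaller.

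**Figure D1:**
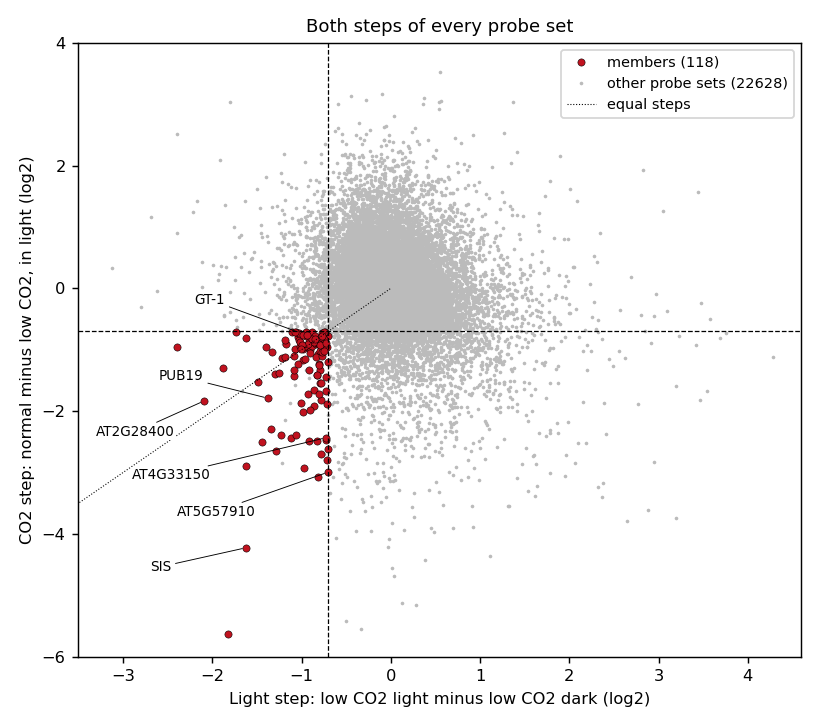
The light step (log2 of low CO2 over the dark, x axis) and the CO2 step (log2 of normal over low CO2, y axis) of every probe set. The 118 members (red) lie below -0.7 in both, the limits drawn as dashed lines, and 78 of them lie below the dotted line of equal steps, where the CO2 step is the larger.

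SIS (AT5G02020), a serine-rich protein induced by salt, had the largest total difference of the named members. It read 20 and 13.9 under normal CO2, 371.8 and 526.8 under low CO2 and 1242.9 and 1532.7 in the dark. The CO2 step of -4.23 was the larger, and the light step was -1.62 (SE 0.23 for each, n = 2 arrays a group). By group means, low CO2 in light held 32.4% of the intensity of darkness and normal CO2 in light 1.22%. The groups, whose order the rule demands, were set apart by wide gaps. The same held for AT5G39520, a gene of no role given here. It read 24.2 and 17.7 under normal CO2, 229.3 and 124.2 under low CO2 and 422.6 and 422.9 in the dark. AT5G39520 had -2.65 in the CO2 step and -1.29 in the light step (SE 0.29).

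AT2G28400, of the S40 family of senescence regulators, had the largest light step of the named members. Its intensity was 28.4 and 11.3 under normal CO2, 82.3 and 87.1 under low CO2 and 357.7 and 415.7 in the dark. The light step was -2.10 and the CO2 step -1.84, which differ by less than the SE of 0.31 of either. AT5G57910 had most of its difference between the CO2 levels, with 13 and 15.1 under normal CO2, 162.4 and 163.1 under low CO2 and 242.6 and 300.5 in the dark. It lay just inside the limit of the light step at -0.71 and had the second largest CO2 step of the named members at -2.995 (SE 0.16), so the light step made up 19.1% of its total, the lowest share of all members.

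AT4G39675 was dim, with 4.9 and 6.2 under normal CO2, 31.7 and 94.3 under low CO2 and 115.8 and 200.8 in the dark. Since the first values lie below the added 7.3, its CO2 step of -2.29 (SE 0.48) is understated. AT4G10910 was similar, at 6 and 7.1 under normal CO2, 34.1 and 65.4 under low CO2 and 73.5 and 122.6 in the dark. AT2G27830 was brighter, with 57.9 and 53.6 under normal CO2, 306 and 388 under low CO2 and 590.4 and 736 in the dark, and had a CO2 step of -2.48 (SE 0.18). As in every member, the rule kept the arrays of each group out of the range of the others.

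AT5G16110 read 131.7 and 117.5 under normal CO2, 339.9 and 816.8 under low CO2 and 1056.8 and 1046.4 in the dark, so its replicates parted widely at low CO2 in light alone. AT1G30250 read 12.9 and 14.8 under normal CO2, 58 and 39.9 under low CO2 and 148.6 and 111.7 in the dark. AT1G03610 read 165.3 and 148.9 under normal CO2, 423 and 614.3 under low CO2 and 856.8 and 1018.1 in the dark. The light and CO2 steps were nearly alike in AT1G30250, at -1.29 and -1.39 (SE 0.24), while in AT1G03610 they were -0.86 and -1.66 (SE 0.21).

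**Figure D2:**
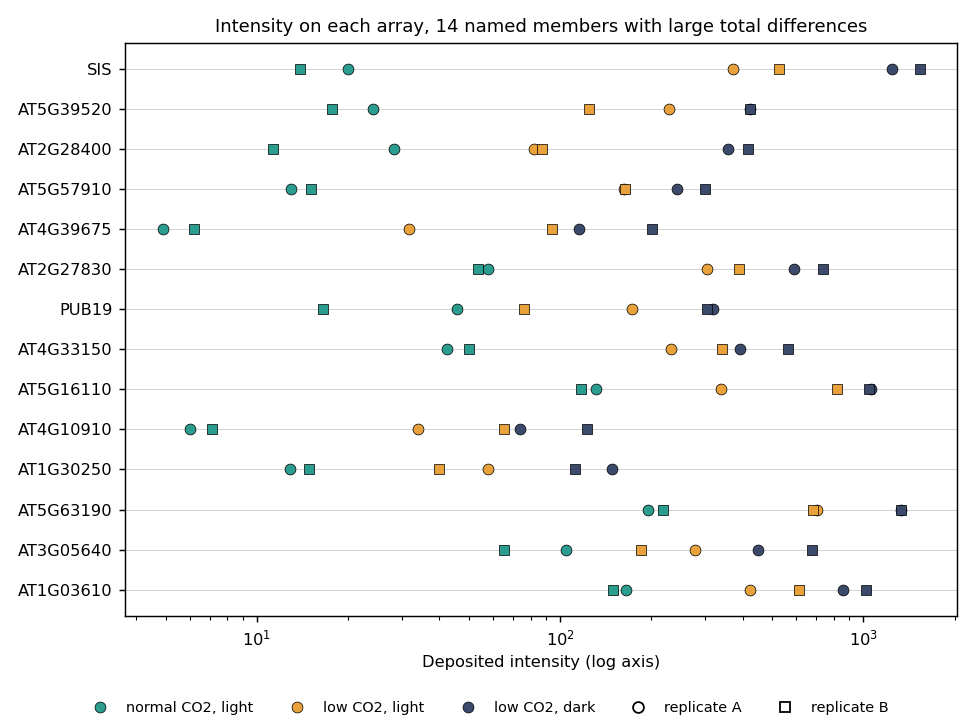
Deposited intensity (log axis) on each of the 6 arrays for 14 of the 15 named members with the largest total difference, circles for replicate A and squares for replicate B. In every row, as the rule demands, the 2 arrays of normal CO2 in light lie left of those of low CO2 in light. These lie left of the 2 of darkness, with values from 13.9 to 1532.7 for SIS.

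The largest total difference of all members belonged to a probe set with no gene name, 252367_at. It read 1.4 and 3.8 under normal CO2, 146.5 and 1531.2 under low CO2 and 1555.6 and 1876.8 in the dark. Array A of low CO2 in light lay far below array B, which came close to darkness, so the light step was -3.35 within A and -0.29 within B. Another unnamed probe set, 259417_at, had the largest light step of all, with 6.6 and 0.6 under normal CO2, 7.3 and 21.1 under low CO2 and 95.2 and 104 in the dark. Its CO2 step was -0.07 within A and -1.85 within B, at values near the added 7.3. Both probe sets were picked out after their values were seen.

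Of the 54 named members, 28 with a known role are described here in 7 groups. Of the stress and senescence group, AT5G60680, another S40 family member, read 124.8 and 151.8 under normal CO2, 286.3 and 353.1 under low CO2 and 622.8 and 650.8 in the dark. AT4G28240, of a wound-responsive family, had a total difference of -2.03. Both S40 genes have the order of the groups that the rule demands of every member. Their light steps were -2.10 in AT2G28400 and -0.99 in AT5G60680 (SE 0.31 and 0.16).

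There were 3 enzymes that break down amino acids or sugar alcohols. AT4G33150 encodes LKR/SDH, the bifunctional lysine-ketoglutarate reductase and saccharopine dehydrogenase that opens lysine breakdown. It read 42.4 and 50.1 under normal CO2, 231.2 and 341.5 under low CO2 and 393 and 562.2 in the dark. The CO2 step was -2.43 and the light step -0.73 (SE 0.25), so the greater part of the difference lay between the CO2 levels. AT5G51970, a sorbitol dehydrogenase, read 404.6 and 422.4 under normal CO2, 704.6 and 1077.3 under low CO2 and 1376.4 and 1734 in the dark. AT4G20930, a mitochondrial hydroxyisobutyrate dehydrogenase of valine breakdown, read 55 and 48.6 under normal CO2, 116 and 71 under low CO2 and 148.9 and 166.2 in the dark, with steps close to the limits at -0.74 in each (SE 0.24).

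Ubiquitin ligases, their adaptors and a protein of ubiquitin-dependent sorting gave 5 members. PUB19, a U-box ubiquitin ligase known as a brake on abscisic acid and drought responses, read 45.6 and 16.5 under normal CO2, 172.6 and 76.3 under low CO2 and 318.3 and 304.7 in the dark. Its replicates lay close in darkness and parted by more than 2 times in each of the light groups, and its steps were -1.38 for light and -1.79 for CO2 (SE 0.47). The RING-type protein AT3G02340 read 70.9 and 55 under normal CO2, 164.2 and 202.8 under low CO2 and 265.6 and 356.5 in the dark, with -0.73 for light and -1.44 for CO2 (SE 0.21). AT4G26400, also of the RING type, read 114.2 and 109.1 under normal CO2, 181.4 and 272.9 under low CO2 and 439.2 and 451.7 in the dark, with -0.98 for light and -0.95 for CO2 (SE 0.20). The CO2 step was thus the larger in the first of these genes, and the steps of the other lay within their SE. ELC, a subunit of the ESCRT-I complex that binds ubiquitinated cargo for the vacuole, and the F-box protein AT1G70590 had total differences of -1.60 and -1.81.

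Transcriptional regulators were the largest group with 6 members. WRKY22, a factor of defence and of leaf senescence in darkness, read 20.3 and 15.8 under normal CO2, 30.7 and 75.8 under low CO2 and 90.8 and 115.1 in the dark. Array A of low CO2 in light stood close to normal CO2 in light and array B close to darkness. GT-1, a trihelix factor that binds GT elements of light-responsive promoters, was tighter, with 58.1 and 55.5 under normal CO2, 93.7 and 103.1 under low CO2 and 209.1 and 205.7 in the dark, and had the larger step with light, at -1.02 against -0.72 for CO2 (SE 0.14). The Dof factor AT1G69570 read 34.4 and 35.9 under normal CO2, 51.2 and 102.1 under low CO2 and 137.9 and 151.3 in the dark, with steps of -0.92 and -0.91 (SE 0.30). Of the group, bHLH121, which controls iron uptake genes, the trihelix protein AT3G11100 and the VQ motif protein AT3G56880 had total differences of -1.73, -1.72 and -1.55. The median light step of this group was -0.94 and its median CO2 step -0.85. Of the 6, only GT-1 had steps that differed by more than the SE of their difference.

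RNA-binding and translation proteins numbered 3. AT5G63190, a MA3 domain protein of a family that binds translation initiation factor eIF4A, had close replicates: 194.5 and 218.4 under normal CO2, 703.8 and 681.8 under low CO2 and 1329.8 and 1327.6 in the dark. Its steps were -0.93 for light and -1.71 for CO2, with an SE of 0.13, the smallest of the named members. The R3H domain proteins AT5G05100 and AT3G10770, of a class that binds single-stranded nucleic acids, had total differences of -1.67 and -1.60. AT5G05100 read 132 and 159.8 under normal CO2, 263.5 and 314 under low CO2 and 452.1 and 505.7 in the dark. AT3G10770 read 326.4 and 364.4 under normal CO2, 524.7 and 623.4 under low CO2 and 1056.9 and 1069.8 in the dark. The light step of AT3G10770 was -0.89 and its CO2 step -0.72.

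A phosphatase and a kinase were also found. AT3G05640, a type 2C protein phosphatase, read 104.5 and 65.2 under normal CO2, 278.7 and 184.4 under low CO2 and 449.5 and 674.7 in the dark. The kinase APK1A read 77.4 and 93.8 under normal CO2, 148.9 and 189.5 under low CO2 and 278.4 and 316.3 in the dark. Light steps were -1.25 and -0.79 and CO2 steps -1.38 and -0.92 for these genes (SE 0.31 and 0.18).

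Of the other 5 enzymes and binding proteins, AT2G41250, a hydrolase of the haloacid dehalogenase family, read 167.7 and 118.9 under normal CO2, 404.3 and 448.9 under low CO2 and 1109.1 and 490.6 in the dark. Array B of darkness stood just above low CO2 in light, so the light step was -1.44 within A and -0.13 within B. AT5G03490, a UDP-glycosyltransferase, read 24.1 and 15.1 under normal CO2, 61.4 and 28.4 under low CO2 and 83 and 131.4 in the dark, with -1.18 for light and -0.90 for CO2 (SE 0.39). AT4G14930, a SurE-like phosphatase, read 174.6 and 264.2 under normal CO2, 332.9 and 425.5 under low CO2 and 715.3 and 858.2 in the dark. Its steps were -1.04 for light and -0.79 for CO2 (SE 0.23), so in neither gene did the steps differ beyond the SE of their difference. The lysophospholipid acyltransferase AT2G45670 and the heavy-metal-associated domain protein AT5G24580 had total differences of -1.55 and -1.74.

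**Figure D3:**
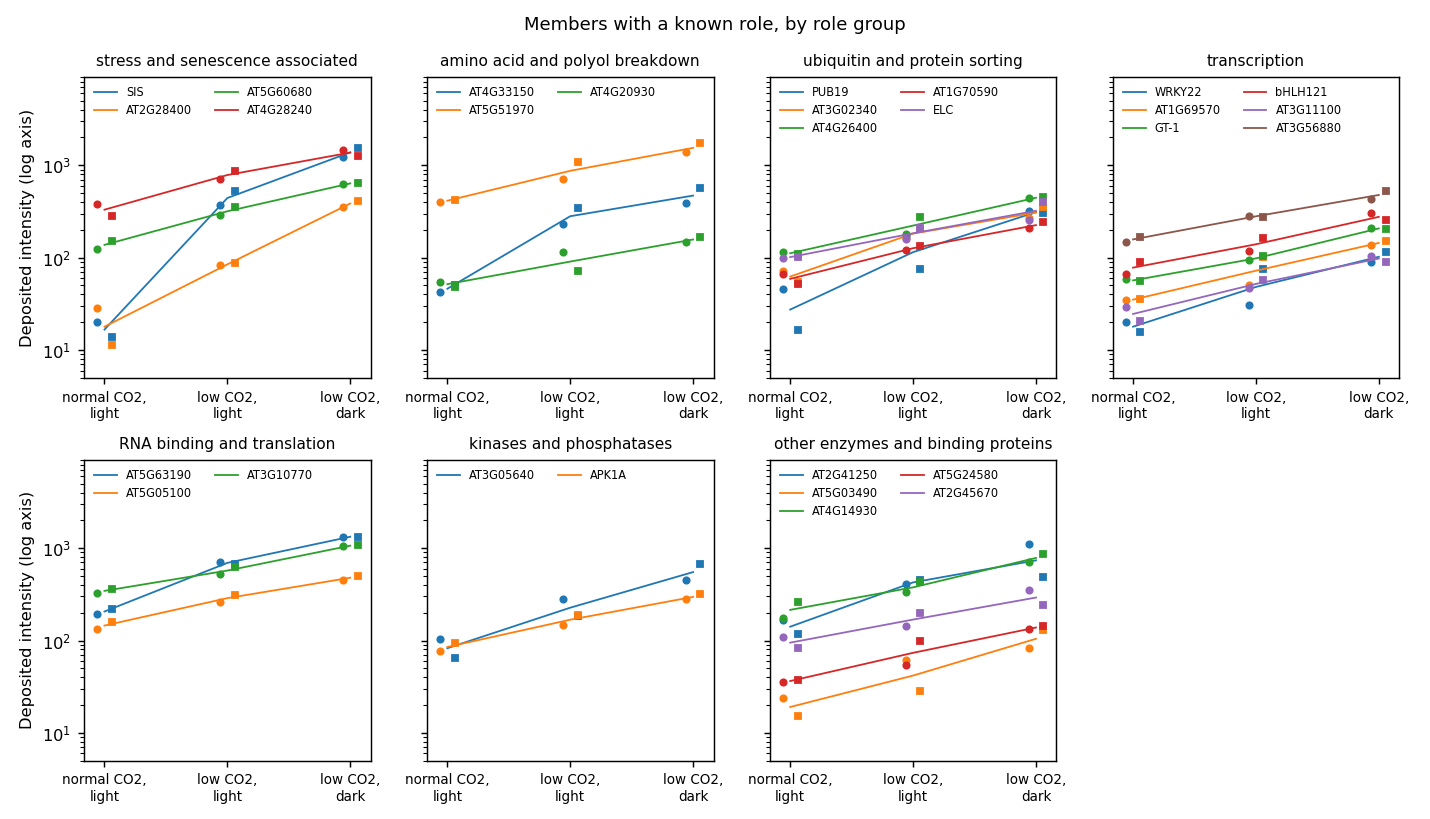
Deposited intensity (log axis) at normal CO2 in light, low CO2 in light and low CO2 in darkness for 28 members with a known role, in 7 panels by role. Circles are replicate A, squares replicate B, and lines join the geometric means. By the rule every line climbs from left to right, here most steeply for SIS.

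Another 25 named members have no role given here. Their light steps ran from -1.35 to -0.70 and their CO2 steps from -2.995 to -0.71, and the CO2 step was the larger in 16. The named members were spread over the 5 chromosomes, with 17, 6, 10, 10 and 11 from the first to the fifth. The named genes on the array numbered 3411, 2169, 2720, 1935 and 2982 in the same order. Among protein-coding genes, 0 pairs of the named members were direct neighbours.

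Close to the limits, the choice of members turned on small differences. In the light step AT1G21920 lay just inside at -0.704, with 368.3 and 317.4 under normal CO2, 825.6 and 773.5 under low CO2 and 1628.4 and 1047.5 in the dark. AT1G05840 lay just outside at -0.695, with 96.3 and 81.3 under normal CO2, 245.4 and 274 under low CO2 and 475 and 378.9 in the dark. Neighbours on both sides of a limit were picked only among probe sets whose arrays kept the order of the rule. In the CO2 step AT3G19030 lay inside at -0.709, with 60.4 and 78 under normal CO2, 100.3 and 136.1 under low CO2 and 320.3 and 209.5 in the dark. AT1G73380 lay outside at -0.699, with 55 and 47.8 under normal CO2, 78.7 and 97.9 under low CO2 and 174.4 and 159.3 in the dark. The order of the arrays was the same in both by that choice. For the intensity in darkness AT1G24600 was inside with a mean of 54.4, from 8.7 and 5.6 under normal CO2, 31.8 and 22.5 under low CO2 and 37.9 and 70.9 in the dark. AT1G50040 was outside with a mean of 46.3, from 12.9 and 4.4 under normal CO2, 20.3 and 27.8 under low CO2 and 49.4 and 43.2 in the dark. Single arrays moved the membership too: without array A of darkness the rule gave 203 probe sets, 104 of them among the 118, and without array A of low CO2 in light it gave 88, of which 65 were among them. Without array B of low CO2 in light it gave 173, sharing 71.

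The replicate letters did not carry the steps equally, and the arrays of a letter shared a technical trait. Of 18 probe sets for spiked-in control RNA, 7 read lower on every A array than on every B array, and 0 the other way round. For BioC at its 3 prime end the A arrays read 29.1 under normal CO2, 25 under low CO2 and 22.9 in the dark, and the B arrays 67.7 under normal CO2, 62.6 under low CO2 and 58.7 in the dark. All 118 members had negative light and CO2 steps within A and within B, a sign that the order of the arrays fixes. The median light step was -1.05 within A and -0.83 within B, and the median CO2 step -1.01 within A and -1.21 within B. Over all probe sets the median light step was -0.01 within A and 0.03 within B. The median CO2 step over all was 0.09 within A and -0.09 within B, so the letters parted in that step across the whole array too. Array B of low CO2 in light read above array A in 89 of the 118 members (75.4%), and in 54.2% of all probe sets. Both steps were -0.7 or less within each letter in 46 members, of which 20 were named: among them were SIS, AT5G39520, AT2G28400, PUB19, AT4G33150, AT5G63190, AT5G60680, AT1G70590 and APK1A. The light step alone met that limit within both letters in 64 members and the CO2 step alone in 77.

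**Figure D4:**
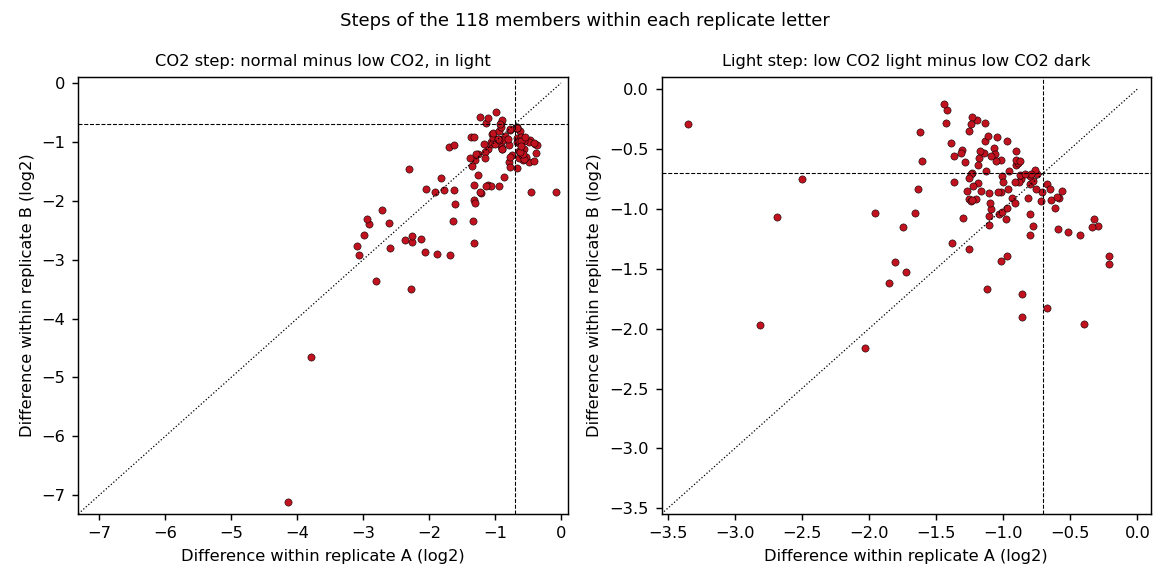
The CO2 step (left) and the light step (right) of the 118 members within replicate A (x axis, log2) and within replicate B (y axis, log2), with the -0.7 limit dashed and equality dotted. All points are below 0 on both axes, with 77 past the limit in both letters on the left and 64 on the right.

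In a limma model of all 22746 probe sets, with a Benjamini-Hochberg adjusted p under 0.05, 9 of the 118 members were called lower in the light step, where 0.193% of all probe sets were called lower. In the CO2 step 83 were called lower, beside 6.20% of all. With the letter as a block in the limma model, 33 were called lower in the light step, beside 0.602% of all, and 97 in the CO2 step, beside 7.42%. The rule used both contrasts, so these counts describe the members and test nothing. Both steps were called in 7 members, of which SIS, AT2G28400, AT5G63190, GT-1 and AT2G46900 are named. Calls in both steps together were not counted over all probe sets. At an unadjusted p under 0.05, 114 members were lower in the light step and 114 in the CO2 step. The rule shaped these counts too, so they test nothing. No count was made over all probe sets at that level. A fit without 1 array leaves a single array in a group, so only sizes are given for it here. With each array left out in turn, the median light step of the members ran from -1.05 to -0.76. Their median CO2 step ran from -1.17 to -1.02. Over all probe sets the medians ran from -0.01 to 0.03 for light and from -0.07 to 0.07 for CO2.

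Lists of genes of related processes were set beside the members, although few of their genes had a named probe set. Of 18 genes known to be induced by sugar starvation or SnRK1, 4 were measured. AT3G15450, ATL8 and CCL, which are no members, were called lower in the CO2 step, where 6.20% of all probe sets were. None of them was called in the light step, where 0.193% of all were called lower. The fourth, SIS, was called lower in both. It is a member chosen on these steps and was put into this list with its values known, so its calls test nothing. AT3G15450 read 281.9 and 353.2 under normal CO2, 2562.9 and 3639.2 under low CO2 and 3322.2 and 3154.3 in the dark. It fell in the CO2 step (-3.25 ± 0.21, SE, limma adjusted p = 0.00402), and its light step was -0.08 (limma adjusted p = 0.900), with the arrays of low CO2 in light on either side of those of darkness. CCL (AT3G26740) had -1.70 for CO2 (limma adjusted p = 0.00635) and 0.06 for light (0.916), and the RING-type ubiquitin ligase ATL8 -2.55 (limma adjusted p = 0.0229) and -0.43 (0.744). Whether these light steps differ from that of SIS was not tested.

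Branched-chain amino acid and lysine breakdown had 11 of 18 genes measured. With limma 5 were called lower in the CO2 step, where 6.20% of all probe sets were. In the light step 0 were called lower (1 at an unadjusted p under 0.05), where 0.193% of all were. The single member among the 11 genes is AT4G33150, one of the 5, which was chosen on both steps. The median of the list was -1.28 for CO2 and 0.02 for light, against -0.01 and 0.02 over all probe sets. A negative light step was seen in 5 of the 11 and a positive one in the others. MCCA had -0.68 and MCCB -0.65 for light (limma adjusted p = 0.702 and 0.484). MCCA, also one of the 5 called for CO2, and ETFQO are in this list and were set aside from the members by name. IVD, isovaleryl-CoA dehydrogenase of leucine breakdown, had -3.82 for CO2 (limma adjusted p = 0.00995) and 0.02 for light (0.994), with an SE of 0.51. It read 58.5 and 55.1 under normal CO2, 612.3 and 1317.1 under low CO2 and 546.1 and 1443.7 in the dark. Array B thus lay far above array A in both low CO2 groups. AT2G26800, hydroxymethylglutaryl-CoA lyase of the same pathway, read 187.5 and 194.2 under normal CO2, 449.1 and 500.6 under low CO2 and 418.8 and 475.1 in the dark. It had -1.28 for CO2 (limma adjusted p = 0.00689) and 0.09 for light (0.818). Of the 11 genes, 10 had a negative CO2 step. AT5G09300 went the other way, with 0.92 for CO2 (limma adjusted p = 0.0771) and 0.02 for light (0.983).

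Of proline and other amino acid breakdown 2 of 15 genes were measured. Both were called lower in the CO2 step, where 6.20% of all probe sets were. AT5G38710 had -1.77 for CO2 (limma adjusted p = 0.0488) and 0.75 for light (0.484), so its light step went the other way from that of the members. The ornithine aminotransferase DELTA-OAT had -1.38 for CO2 (limma adjusted p = 0.00697) and -0.61 for light (0.110), and read 121 and 126 under normal CO2, 357.3 and 309.7 under low CO2 and 472.6 and 552.1 in the dark. It kept the order of the members without reaching the light limit. Of core autophagy genes other than ATG8, 7 of 21 were measured. With limma 2 were called lower in the CO2 step and 0 in the light step, where 0.193% of all were (1 gene at an unadjusted p under 0.05). Those called were ATG3, the conjugating enzyme of ATG8 (-0.88 for CO2, limma adjusted p = 0.0356, and 0.15 for light), and AT5G50230, related to ATG16. AT5G50230 read 106.9 and 103.3 under normal CO2, 179.4 and 190.1 under low CO2 and 283.5 and 274.5 in the dark, again in the order of the members, with -0.77 for CO2 (limma adjusted p = 0.0141) and -0.58 for light (0.0888), short of the limit of -0.7.

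Of senescence and chlorophyll breakdown genes 3 of 14 were measured. WRKY6 was called lower in the CO2 step (-1.94, limma adjusted p = 0.0122), where 6.20% of all probe sets were, and had 0.43 for light. WRKY53 had -1.07 and -0.11 (limma adjusted p = 0.0890 and 0.918). SAG29 had 0.19 for CO2 and 0.14 for light (limma adjusted p = 0.929 and 0.968, SE 0.94). Its arrays parted widely, with 45.4 and 5.8 under low CO2 and 49.2 and 2.8 in the dark. Of the group C and S1 bZIP factors, 2 of 9 were measured, and BZIP53 was called lower in the CO2 step (-1.14, limma adjusted p = 0.0455; light 0.25). Peroxisomal beta-oxidation and the glyoxylate cycle had 2 of 15 genes measured, with AIM1 at -0.16 for CO2 and -0.15 for light and neither called. The auxin response gene IAA29, the single measured gene of 12 in the shade list, read 25.3 and 12.2 under normal CO2, 14.2 and 21.5 under low CO2 and 124 and 80.8 in the dark. Its light step was -2.11 (limma adjusted p = 0.0525) and its CO2 step 0.02, so both arrays of darkness lay above all 4 arrays in light. GI, the single measured clock gene of 14, had 2.18 for light (limma adjusted p = 0.0621) and -0.68 for CO2. Trehalose-6-phosphate synthases had 0 of 11 genes named here. Of the 33 genes measured in these lists, limma called 0 higher in either step (at an unadjusted p under 0.05, 2 in the light step and 1 in the CO2 step), beside 0.849% of all probe sets in the light step and 8.40% in the CO2 step.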

How the data were processed

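Whole rosettes of the pgm mutant were measured on 6 single-colour arrays, grouped by their titles. Each deposited value is the linear intensity of a probe set, made with MAS5 per the submitters' processing notes. Neither its version nor its scaling target is given in the sources used here. After trimming 2% at each end, the mean was near 100.01 on every array, so the authors had scaled the arrays and no normalization was added. Of 22810 probe sets, 64 controls were left out. Names came from the platform annotation (13513 probe sets with 1 symbol, 503 with several, 8730 with none), of which 13436 matched TAIR10.1 by Entrez ID.

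Values were transformed as log2(intensity + 7.3), their 20th percentile, in Python 3.11.15 (pandas 2.3.3). Limma 3.58.1 in R 4.3.3 fitted 3 group means to all arrays (eBayes with trend, 3 residual degrees of freedom, Benjamini-Hochberg over 22746 probe sets). It was tested on simulated data. For lists, 1 probe set per gene was used, that with the highest mean.

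Members, lists and role groups were chosen with earlier results of these data known. Named in full were the 15 named members with the largest total difference, the 3 largest per step, up to 3 per role group by total difference, those nearest a limit, and up to 4 genes per list; 1 named member is not reported here. Replicates are called biological in the series text. Alternatives were another pseudocount, scalings, a filter on dim probe sets, other limits, the letter as a block, the arrays of a step alone, and each array left out. Promoter motifs were planned and not analysed here.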

Additional observations from a re-analysis of the deposited data

How the results depend on the processing

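The rule gave 118 members. It gave 96 with a pseudocount of 16, 117 after quantile normalization (107 shared with the 118), 143 with arrays shifted to a common median (118 shared) and 110 to 125 with other intensity minimums. With both steps at -1 or less it gave 23, and 88 to 203 with each array left out, the highest without low CO2 in darkness A (104 shared). A set of 33 met the rule under every left-out array. As a replicate block, with both steps required within A and within B, 46 remained. The deviations of A from B correlated across groups with r = 0.02 to 0.31. No label says that a letter marks shared plants or a shared day, although the spiked-in BioC controls differed by letter in every group. Members called lower in the light step by limma were 9, against 16 with a common median, 33 after the filter on dim probe sets (fewer probe sets tested), 33 with the replicate block, 0 in a limma model of the 4 arrays of the step alone (103 at an unadjusted p under 0.05), and 0 to 2 with each array left out. For the CO2 step they were 83, against 80 to 100 under the other alternatives except the 4 arrays alone, which gave 75, and 0 to 78 with each array left out. Over all probe sets, limma called 44 lower in the light step, against 70 with a common median and 137 with the replicate block. After the filter on dim probe sets it called 203 of 14222, and with the 4 arrays of the step alone 0 of 22746. That 0 thus does not single out the members. In the CO2 step limma called 1410, and 1225 with the 4 arrays alone. Each limma fit with an array left out has a single array in a group, so its counts of calls say nothing about the members. For the other differences between settings, the cause was not tested. The number of arrays and values near the added 7.3 limit the sizes given: 21 members had a mean intensity under 20 at normal CO2 in light.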
